A study of Mus musculus with 2 samples.

Results

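Genes of the core splicing machinery and of the heterogeneous nuclear ribonucleoproteins (hnRNPs) were compared between the inner cell mass (ICM) and the whole blastocyst of the E3.75 mouse embryo. The genes were taken by symbol from the deposited table: all rows that start with Srsf or Sfrs and a digit, Hnrnp or Hnrp, Sf3a or Sf3b, Snrp, Prpf, or U2af. This gave 73 of 19559 rows, with 18 SR genes, 20 hnRNP genes, 8 SF3A and SF3B genes, 11 snRNP protein genes, 13 PRPF genes and 3 U2AF genes. Of the 73, 20 are listed under an older symbol, such as Sfrs2 for Srsf2. The Sfrs symbols include 10 genes that are now named otherwise or lie outside the classical SR proteins, among them Sfrs16 (Clasrp), Sfrs14 (Sugp2), Sfrs15 (Scaf4) and Sfrs17b (Akap17b).

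There was 1 library of ICMs, isolated by immunosurgery, and 1 library of whole blastocysts of the same age. All embryos came from crosses of B6CBAF1 females with CD-1 males. The whole blastocyst contains its own ICM, so the 2 libraries differ by design in the outer trophectoderm. The number of embryos per library was not given in the sources used here. Markers of both tissues were read first. All 10 ICM markers examined were higher in the ICM library, with summed RPKM of 317 in ICM and 44.1 in whole blastocyst, and all 9 trophectoderm markers were lower, with 54.6 in ICM and 1736 in whole blastocyst. Elf5 was the 1 trophectoderm marker with no ICM read, so signal of these markers was reduced but not absent in the ICM library. In such bulk libraries, fewer cells of a type and less RNA per cell cannot be told apart.

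Splicing removes introns from pre-mRNA in the spliceosome, which is assembled from small nuclear ribonucleoproteins (snRNPs). Most of them carry a ring of Sm proteins around their RNA. U1 recognises the start of the intron, U2AF and then U2 with its SF3A and SF3B subunits recognise the branch site and intron end, and the tri-snRNP with several PRPF proteins then forms the catalytic centre. SR proteins bind exonic enhancers and mostly promote exon inclusion, while many hnRNPs bind silencers and oppose it, and both classes also act in RNA export and stability.

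Promoters are shown for 6 members at the ends and the middle of the range described below: Srsf2, the most abundant member in both libraries, Prpf31, Sf3a1 and Snrpn, which had more RNA signal in the ICM library, and Snrpe and Snrpg, which had the lowest ratios of ICM to whole blastocyst among the Sm genes. RefSeq sequences on GRCm38.p6 run from 250 bases before to 50 bases after the gene start. The build of the deposited table is mm9, so these coordinates belong to the sequences only. Capitals mark matches on either strand. The motifs searched were the TATA box as TATAAA, the CCAAT box by those letters, the core bound by ETS factors as CCGGAAG, the palindrome of NRF1, the GC box as GGGCGG, and the E-box as CACGTG. Overlapping matches, as in Srsf2 and Snrpe, run together. The Snrpn sequence is that of the start nearest the gene's end among 4 starts in the table.
Srsf2 (chr11:116853045-116853344, minus strand): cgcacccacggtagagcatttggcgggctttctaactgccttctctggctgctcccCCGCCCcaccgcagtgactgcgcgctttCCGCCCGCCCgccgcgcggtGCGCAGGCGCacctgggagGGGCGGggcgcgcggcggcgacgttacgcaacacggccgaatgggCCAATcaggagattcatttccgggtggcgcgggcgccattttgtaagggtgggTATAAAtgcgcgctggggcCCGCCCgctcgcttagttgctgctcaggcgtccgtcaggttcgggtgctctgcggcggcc
Prpf31 (chr7:3629735-3630034, plus strand): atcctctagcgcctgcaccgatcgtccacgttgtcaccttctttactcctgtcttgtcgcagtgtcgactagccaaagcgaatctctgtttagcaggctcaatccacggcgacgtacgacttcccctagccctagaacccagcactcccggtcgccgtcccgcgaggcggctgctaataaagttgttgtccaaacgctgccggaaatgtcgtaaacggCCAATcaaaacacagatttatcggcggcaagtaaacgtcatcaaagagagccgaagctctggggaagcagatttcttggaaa
Sf3a1 (chr11:4160104-4160403, plus strand): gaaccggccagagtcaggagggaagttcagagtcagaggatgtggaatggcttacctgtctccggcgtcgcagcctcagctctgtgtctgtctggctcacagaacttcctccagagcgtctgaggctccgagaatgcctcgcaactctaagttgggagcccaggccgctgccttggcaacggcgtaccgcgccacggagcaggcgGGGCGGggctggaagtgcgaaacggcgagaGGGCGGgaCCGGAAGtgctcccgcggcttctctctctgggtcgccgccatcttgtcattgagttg
Snrpn (chr7:60005150-60005449, minus strand): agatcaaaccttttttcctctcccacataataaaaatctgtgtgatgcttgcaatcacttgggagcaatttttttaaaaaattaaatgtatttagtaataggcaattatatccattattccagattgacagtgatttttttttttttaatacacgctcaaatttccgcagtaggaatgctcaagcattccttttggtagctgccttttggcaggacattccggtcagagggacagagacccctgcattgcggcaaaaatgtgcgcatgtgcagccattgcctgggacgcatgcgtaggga
Snrpe (chr1:133610231-133610530, minus strand): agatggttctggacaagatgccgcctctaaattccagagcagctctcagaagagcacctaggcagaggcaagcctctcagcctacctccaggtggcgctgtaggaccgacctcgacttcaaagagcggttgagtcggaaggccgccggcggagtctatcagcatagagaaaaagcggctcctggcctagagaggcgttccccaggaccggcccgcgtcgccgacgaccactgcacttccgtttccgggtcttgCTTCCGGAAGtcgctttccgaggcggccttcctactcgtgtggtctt
Snrpg (chr6:86371290-86371589, plus strand): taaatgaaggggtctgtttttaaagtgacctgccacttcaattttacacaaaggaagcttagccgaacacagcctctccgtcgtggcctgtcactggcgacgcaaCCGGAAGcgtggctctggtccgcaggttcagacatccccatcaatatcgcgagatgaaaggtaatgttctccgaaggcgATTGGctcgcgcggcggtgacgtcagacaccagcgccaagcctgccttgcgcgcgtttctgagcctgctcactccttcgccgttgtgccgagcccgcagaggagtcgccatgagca
The Srsf2 promoter held 5 GC boxes, 1 CCAAT box, 1 TATA box and 1 NRF1 match. Snrpe held 2 ETS core matches on opposite strands of the same stretch, Snrpg 1 ETS core and 1 CCAAT box, Sf3a1 2 GC boxes and 1 ETS core, and Prpf31 1 CCAAT box. The Snrpn window held none of these letters. Of the 63 members with a promoter in the table (the first start listed for each), 21 (33.3%) held the ETS core, compared with 20.7% of 7176 promoters of genes with an RPKM of at least 1 in either library. The NRF1 letters stood in 11 (17.5%) and in 11.9% of these, the CCAAT box in 29 (46.0%) and 39.2%, the E-box in 9 (14.3%) and 10.9%, the TATA box in 7 (11.1%) and 6.68%, and the GC box in 42 (66.7%) and 66.8%. These are matches of letters and not evidence of binding.

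The values are read counts and RPKM (reads per kilobase of a gene length and scaled by a library total). What that length was could be read from the table, because reads divided by RPKM must be a length times a constant. With a library total of 37920430 in ICM and 45011450 in whole blastocyst, the implied length was a whole number of bases, within 0.05, in 100% of the 14030 genes with a read. For 45 of the 73 splicing genes that length lay within 2 bases of an annotated last exon in GENCODE M21. Over all 13812 genes with annotation it did so for 56.8%, and matched a whole transcript in 3.26%, an internal exon in 1.35% and a first exon in 0.876%. Of the other 28, Prpf31 missed by a few bases, with an implied 1685 against an annotated 1689. The lengths of the 73 genes ran from 115 bases in Sfrs16 to 5397 in Hnrnpd, with a median of 787. RPKM of these genes therefore stands per length of a last exon for most of them, and not per length of the mRNA. Whether reads were counted outside these exons was not given in the sources used here. A ratio of the libraries is free of the length, since both columns used the same one.

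**Figure D1:**
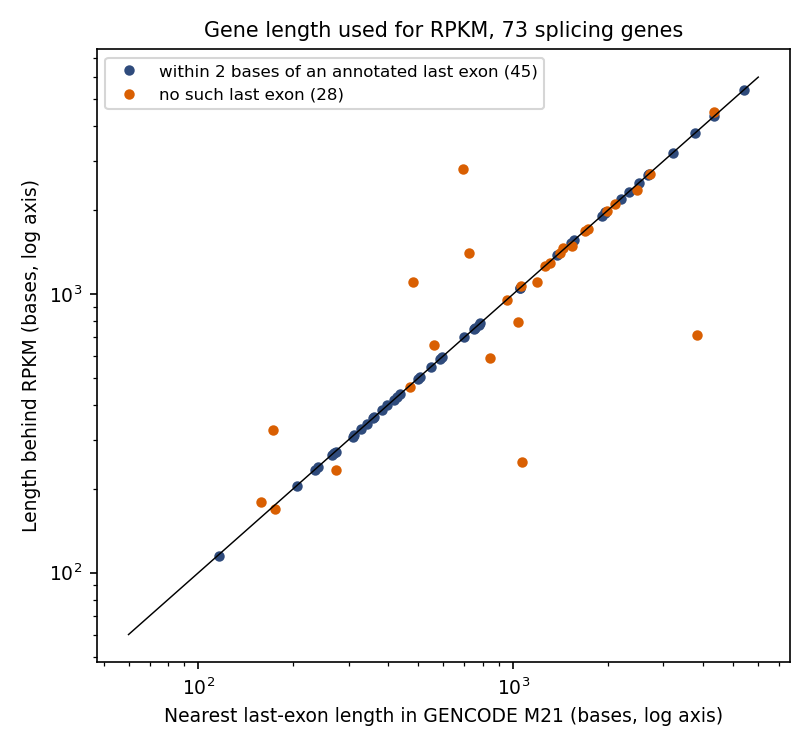
Length behind the deposited RPKM (vertical, bases, log axis) against the nearest last-exon length annotated in GENCODE M21 (horizontal, bases, log axis), 1 point per gene, with the line of equality. The 45 blue points lie within 2 bases of an annotated last exon, and the 28 orange points lie further off.

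As deposited, RPKM was lower in ICM than in whole blastocyst for most splicing genes, while most lay above the centre of the table once that centre was taken off. The difference was taken as log2((ICM RPKM + 1)/(whole-blastocyst RPKM + 1)), which understates the change of low genes. Genes were retained where either library reached an RPKM of 1, as 70 of the 73 members and 8981 genes in all did. Sfrs8, Hnrnpa1 and Hnrnpa3 did not. A single library stands for each tissue, so nothing was tested, and the 95% intervals cover counting error only. Of the 70 members, 15 (21.4%) were at least 2-fold lower in ICM, where the share over all retained genes was 44.0%. One member, Sf3b4, was at least 2-fold higher (1.43%), where the share over all was 8.96%. ICM RPKM was above that of the whole blastocyst in 15 of the 70, and in 23.4% of all retained genes. Without the filter, when rows with no read enter at a difference of 0, 20.5% of the 73 members and 20.2% of all 19559 rows were lower by 2-fold or more. With 1 added to each RPKM, rows under an RPKM of 1 in both libraries cannot reach 2-fold, so they only enlarge the denominator.

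The median difference was -0.51 over the members (0.14 centred, 0.37 scaled to the listed reads) and -0.84 over all retained genes (-0.185 centred), and the distance between the quartiles was 0.814 over the members and 1.43 over all. At a mean RPKM of 10 or more, where 42 members stood, 10 (23.8%) were at least 2-fold lower, against 46.7% of 2784 genes. Summed over all 73 genes, RPKM was 2114 in ICM and 3104 in whole blastocyst, a ratio of 0.681, while the ratio over the whole table was 0.514. As a share of all RPKM the members made up 2.31% of the ICM library and 1.74% of the whole-blastocyst library. The listed genes held 4125479 reads in ICM and 9271198 in whole blastocyst, which is 10.9% of the total behind RPKM in ICM and 20.6% in whole blastocyst. The part of this gap in the members' values was not tested. A centred difference has -0.66 taken off, the median of the 3013 genes that reached an RPKM of 5 in ICM and in whole blastocyst, which makes each ratio 1.58 times larger. After centring, 6 members passed 2-fold upwards (16.9% of all retained genes did) and 3 downwards (20.5% of all did), and 42 of 70 lay above the centre, beside 43.3% of all retained genes.

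**Figure D2:**
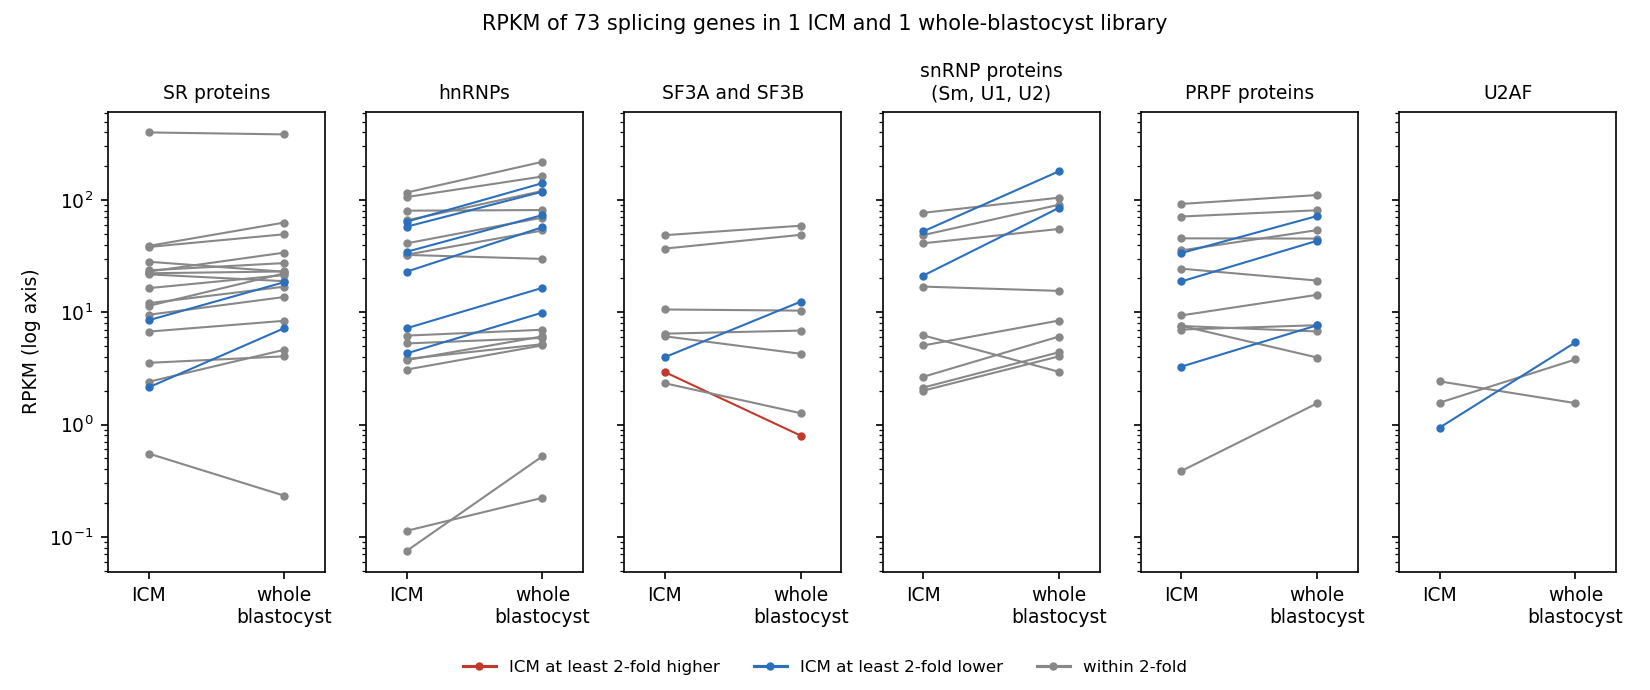
RPKM (log axis) of each of the 73 genes in the ICM library (left in each panel) and the whole-blastocyst library (right), 1 panel per family and 1 line per gene. Blue lines mark the 15 genes called at least 2-fold lower in ICM on the log2(RPKM + 1) scale among the 70 retained, the red line Sf3b4, the only one called higher on that scale, and grey lines the rest.

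The SR genes had a summed RPKM of 669 in ICM and 741 in whole blastocyst (ratio 0.904), most of it from Srsf2 in both libraries. Without Srsf2 the sum was 269 in ICM and 356 in whole blastocyst (ratio 0.756), below the 0.819 of the SF3A and SF3B genes. Among 17 retained genes 2 (11.8%, beside 44.0% of all retained genes) were lower by 2-fold or more, Sfrs14 and Sfrs16, and none higher. After centring none passed 2-fold either way, beside 16.9% of all retained genes upwards and 20.5% downwards. The median difference was -0.37, which turned to 0.29 centred and 0.53 scaled to the listed reads. None of the 8 classical SR genes was past 2-fold. Srsf2 (Sfrs2, also called SC35), an enhancer-binding SR protein, led all members in both libraries, with an RPKM of 400.1 in ICM and 384.2 in whole blastocyst, a ratio of 1.04 (95% counting interval 1.02 to 1.06). It held 54.6% of the reads of the classical set in ICM and 46.2% in whole blastocyst. The last exon of Srsf2 overlaps exons of Mettl23 on the other strand, and strand use was not given in the sources used here, so reads of the pair cannot be told apart.

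Srsf7 (Sfrs7) and Srsf6 (Sfrs6) were also slightly above 1. Srsf7, which shares its RNA-binding fold and export function with Srsf3, had an RPKM of 28.2 in ICM and 23.0 in whole blastocyst (ratio 1.23, 1.14 to 1.32). Its relative Srsf3 (Sfrs3) had 23.0 in ICM and 34.0 in whole blastocyst (0.677, 0.638 to 0.719). Per length, Srsf7 thus made up 55.1% (53.4 to 56.7) of the pair in ICM and 40.3% (38.9 to 41.8) in whole blastocyst. For Srsf3, 24.3% of the 35-base words of the last exon also occur in a transcript of 1 other gene, and how such reads were assigned was not stated. Srsf6 had an RPKM of 21.8 in ICM and 18.9 in whole blastocyst (1.15, 1.08 to 1.22), Srsf5 (Sfrs5) 22.2 in ICM and 23.1 in whole blastocyst, and Srsf4 (Sfrs4) 9.50 in ICM and 13.7 in whole blastocyst. For Srsf5, 16.5% of the last-exon words are shared with 1 pseudogene.

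Srsf1 (Sfrs1, also called SF2/ASF), the founding SR protein, had 39.0 in ICM and 63.0 in whole blastocyst (0.619, 0.600 to 0.638), which lies at the centre of the table with a centred difference of -0.021. Its close relative Srsf9 (Sfrs9) had 11.4 in ICM and 22.2 in whole blastocyst (0.513, 0.436 to 0.603). The lowest ratios of the family were those of the SR-related genes Sfrs14 (Sugp2), with 19 reads in ICM and 76 in whole blastocyst (0.297, 0.169 to 0.496), and Sfrs16 (Clasrp, a partner of the SR kinase CLK4), with 37 reads in ICM and 96 in whole blastocyst (0.457, 0.304 to 0.675). Sfrs17b (Akap17b) had an RPKM of 2.40 in ICM and 4.64 in whole blastocyst (0.518, 0.460 to 0.582). The other 6 retained SR-related genes, Sfrs18 (Pnisr), Sfrs11, Sfrs2ip (Scaf11), Sfrs12 (Srek1), Sfrs15 (Scaf4) and Sfrs12ip1 (Srek1ip1), had differences from -0.46 to -0.15. Sfrs8 (Sfswap) had 8 reads in ICM and 4 in whole blastocyst, too few for a direction (2.37, 0.636 to 10.8).

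Of 18 retained hnRNP genes, 6 (33.3%, beside 44.0% of all retained genes) were lower by 2-fold or more in ICM and none higher. The median difference was -0.72, which was -0.065 centred and turned to 0.18 scaled to the listed reads. Summed RPKM was 689 in ICM and 1183 in whole blastocyst (ratio 0.582). After centring none of the 18 passed 2-fold, beside 16.9% of all retained genes upwards and 20.5% downwards. The 6 were Hnrnpk, Hnrnpa2b1, Hnrnpa0, Hnrnph3, Hnrpll and Hnrnpab. Hnrnpk, a binder of C-rich RNA and DNA through its KH domains, had an RPKM of 23.0 in ICM and 57.3 in whole blastocyst (0.402, 0.358 to 0.450). Of the last-exon words of Hnrnpk 17.9% are shared with 3 pseudogenes. Hnrnpa2b1, which binds exonic silencers and sorts RNAs for transport, had 64.2 in ICM and 141 in whole blastocyst, on 6861 reads in ICM and 17937 in whole blastocyst (0.454, 0.442 to 0.467). The annotated last exon nearest in length, of 694 bases, is far from the 2819 behind the RPKM of Hnrnpa2b1. Its relative Hnrnpa0 had 7.21 in ICM and 16.5 in whole blastocyst (0.437, 0.401 to 0.476).

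Other members of that subfamily carried few reads. Hnrnpa1, an antagonist of SR proteins that is usually abundant in dividing cells, had 3 reads in ICM and 7 in whole blastocyst. Hnrnpa3 had 4 reads in ICM and 33 in whole blastocyst (0.144, 0.0370 to 0.405). Of the 35-base words of the last exon examined, 48.8% in Hnrnpa3 and none in Hnrnpa1 occur in transcripts of other genes of GENCODE M21. For Hnrnpa3 the annotated exon nearest in length, of 724 bases, is far from the 1406 behind its RPKM. The handling of reads with several matches was not given in the sources used here, and neither low value is read as low expression.

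Some hnRNP genes had about equal RPKM as deposited. Hnrnpc, which binds uridine-rich tracts of nascent transcripts, had 80.4 in ICM and 81.4 in whole blastocyst (0.987, 0.910 to 1.07), and Hnrnpr 6.20 in ICM and 6.99 in whole blastocyst (0.887, 0.761 to 1.03). For Hnrnpr, 28.1% of the last-exon words are shared with 3 other genes. Hnrpdl (Hnrnpdl) was the only hnRNP gene above 1, with 32.5 in ICM and 29.9 in whole blastocyst (1.09, 1.02 to 1.16). Its relatives differed from it, Hnrnpd (also called AUF1, a regulator of AU-rich mRNAs) with 5.28 in ICM and 5.91 in whole blastocyst (0.893, 0.824 to 0.967), and Hnrnpab with 57.9 in ICM and 119 in whole blastocyst (0.488, 0.468 to 0.509). The counting intervals of these 3 ratios do not overlap, though they leave out any spread between embryos or libraries. The last exon of Hnrnpab overlaps exons of Phykpl on the other strand.

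Hnrnpm and Hnrnpu, which had the highest RPKM of the hnRNP genes in both libraries, lay between those called lower and those near equal. Hnrnpm had an RPKM of 117 in ICM and 219 in whole blastocyst (0.533, 0.505 to 0.563), and Hnrnpu, a scaffold-attachment factor of chromatin, 106 in ICM and 162 in whole blastocyst (0.656, 0.632 to 0.680). Hnrnpul2 had 32.6 in ICM and 53.5 in whole blastocyst, and Hnrnpul1 3.09 in ICM and 5.07 in whole blastocyst, so Hnrnpul2 held 91.3% of the pair per length in both libraries. In the H/F group, which binds G-rich runs, Hnrnph1 had 65.9 in ICM and 120.4 in whole blastocyst (0.547, 0.518 to 0.578) and Hnrnph3 34.6 in ICM and 73.4 in whole blastocyst (0.472, 0.443 to 0.502). Hnrnph2 had 3.84 in ICM and 5.20 in whole blastocyst and Hnrnpf 3.753 in ICM and 6.10 in whole blastocyst, with 40.9% of the last-exon words of Hnrnph2 and 62.9% of those of Hnrnpf shared with pseudogenes. Hnrnpl had 41.1 in ICM and 69.7 in whole blastocyst (0.590, 0.536 to 0.648), and its paralog Hnrpll (Hnrnpll), a switch of CD45 splicing in lymphocytes, 4.31 in ICM and 9.94 in whole blastocyst (0.433, 0.362 to 0.517).

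The SF3A and SF3B genes together had the highest family median, -0.024, which turned to 0.63 centred and 0.88 scaled to the listed reads. Taken apart, the median was 0.43 for the 3 SF3A genes and -0.28 for the 5 SF3B genes, beside -0.26 for the PRPF genes. The SF3A and SF3B proteins hold the U2 snRNP at the branch site. Of 8 genes, 1 (12.5%) passed 2-fold upwards and 1 (12.5%) downwards, beside 8.96% and 44.0% of all retained genes. After centring 3 passed it upwards, none downwards, and 7 lay above the centre, beside 16.9%, 20.5% and 43.3% of all retained genes. All 3 SF3A genes had a ratio above 1, beside 23.4% of all retained genes. Sf3a1 had an RPKM of 6.11 in ICM and 4.27 in whole blastocyst (1.43, 1.27 to 1.62), Sf3a2 2.33 in ICM and 1.26 in whole blastocyst (1.85, 1.296 to 2.65), and Sf3a3 10.6 in ICM and 10.3 in whole blastocyst (1.02, 0.768 to 1.36), the last not separated from 1 at this depth.

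The SF3B genes spread widely. Sf3b4, which contacts RNA upstream of the branch site, had 65 reads in ICM and 21 in whole blastocyst, an RPKM of 2.93 in ICM and 0.798 in whole blastocyst (3.67, 2.22 to 6.33). Of its last-exon words 26.1% are shared with 1 pseudogene. Sf3b2, its binding partner in the complex, stood on the other side, with 3.99 in ICM and 12.4 in whole blastocyst (0.321, 0.251 to 0.406). Sf3b1, the large subunit, whose human gene is often mutated in myeloid neoplasms, had 36.9 in ICM and 49.0 in whole blastocyst (0.754, 0.722 to 0.788), and Sf3b3 48.6 in ICM and 59.1 in whole blastocyst (0.823, 0.761 to 0.890). Sf3b5, the smallest subunit listed, had 6.45 in ICM and 6.87 in whole blastocyst (0.939, 0.765 to 1.15).

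The snRNP protein genes had a median difference of -0.75, which was -0.092 centred and turned to 0.023 scaled to the listed reads. Of 11 genes, 2 (18.2%, beside 44.0% of all retained genes) were lower by 2-fold or more and none higher. The Sm genes, whose products form 1 ring, were uneven, with differences from -1.95 to 0.87. Snrpe had an RPKM of 21.2 in ICM and 85.1 in whole blastocyst (0.249, 0.210 to 0.295), and Snrpg 52.6 in ICM and 180.2 in whole blastocyst (0.292, 0.258 to 0.329). Both also passed 2-fold downwards after centring. Snrpd1 had 41.2 in ICM and 55.2 in whole blastocyst (0.746, 0.677 to 0.821), Snrpd2 5.06 in ICM and 8.44 in whole blastocyst (0.600, 0.415 to 0.857), and Snrpd3 16.9 in ICM and 15.5 in whole blastocyst (1.09, 0.840 to 1.42). Of the last-exon words of Snrpe 10.5% are shared with 2 pseudogenes, of Snrpg 12.1% with 1, and of Snrpd2 10.8% with 3 other genes, where the annotated exon is longer than the length behind its RPKM (1067 and 250 bases).

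Snrpb and Snrpn encode the closely related ring proteins SmB and SmN. Snrpn is an imprinted gene, expressed from the paternal allele and best known from neurons. It had 183 reads in ICM and 103 in whole blastocyst, an RPKM of 6.23 in ICM and 2.95 in whole blastocyst (2.11, 1.65 to 2.71). Snrpb had 31 reads in ICM and 84 in whole blastocyst, an RPKM of 2.66 in ICM and 6.08 in whole blastocyst (0.438, 0.280 to 0.669). Per length, Snrpn made up 70.0% (61.4 to 78.0) of the pair in the ICM library and 32.7% (26.5 to 39.6) in the whole-blastocyst library. The counting intervals of the 2 libraries do not overlap, and the ratio of Snrpn to Snrpb differed 4.81-fold. Such intervals leave out any spread between embryos or libraries. Of the 70 retained members, only 10 had a counting interval of the ratio that spans 1. Of the last-exon words of Snrpn 1.48% are shared with another gene, and of Snrpb none. The last exon of Snrpn overlaps the annotated gene Gm38393 on the same strand. With the pseudocount, Snrpn reached a difference of 0.87 and so stayed within 2-fold, while its centred difference was 1.53.

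The U1 and U2 proteins outside the ring were more alike, with differences from -0.88 to -0.44. Of U1, Snrpa had 29 reads in ICM and 71 in whole blastocyst (0.485, 0.303 to 0.757), and Snrpc 25 reads in ICM and 60 in whole blastocyst (0.495, 0.297 to 0.801). Of the last-exon words of Snrpa 35.5% are shared with 6 pseudogenes, and of those of Snrpc 31.3% with 6. Snrpa1 and Snrpb2, which bind each other in U2, had clearly more reads. Snrpa1 had an RPKM of 76.9 in ICM and 104.9 in whole blastocyst (0.733, 0.669 to 0.802), and Snrpb2 48.7 in ICM and 90.8 in whole blastocyst (0.537, 0.501 to 0.575). On the log2(RPKM + 1) scale none of these 4 was past 2-fold, although the plain RPKM ratios of Snrpa and Snrpc lie just under 0.5.

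**Figure D3:**
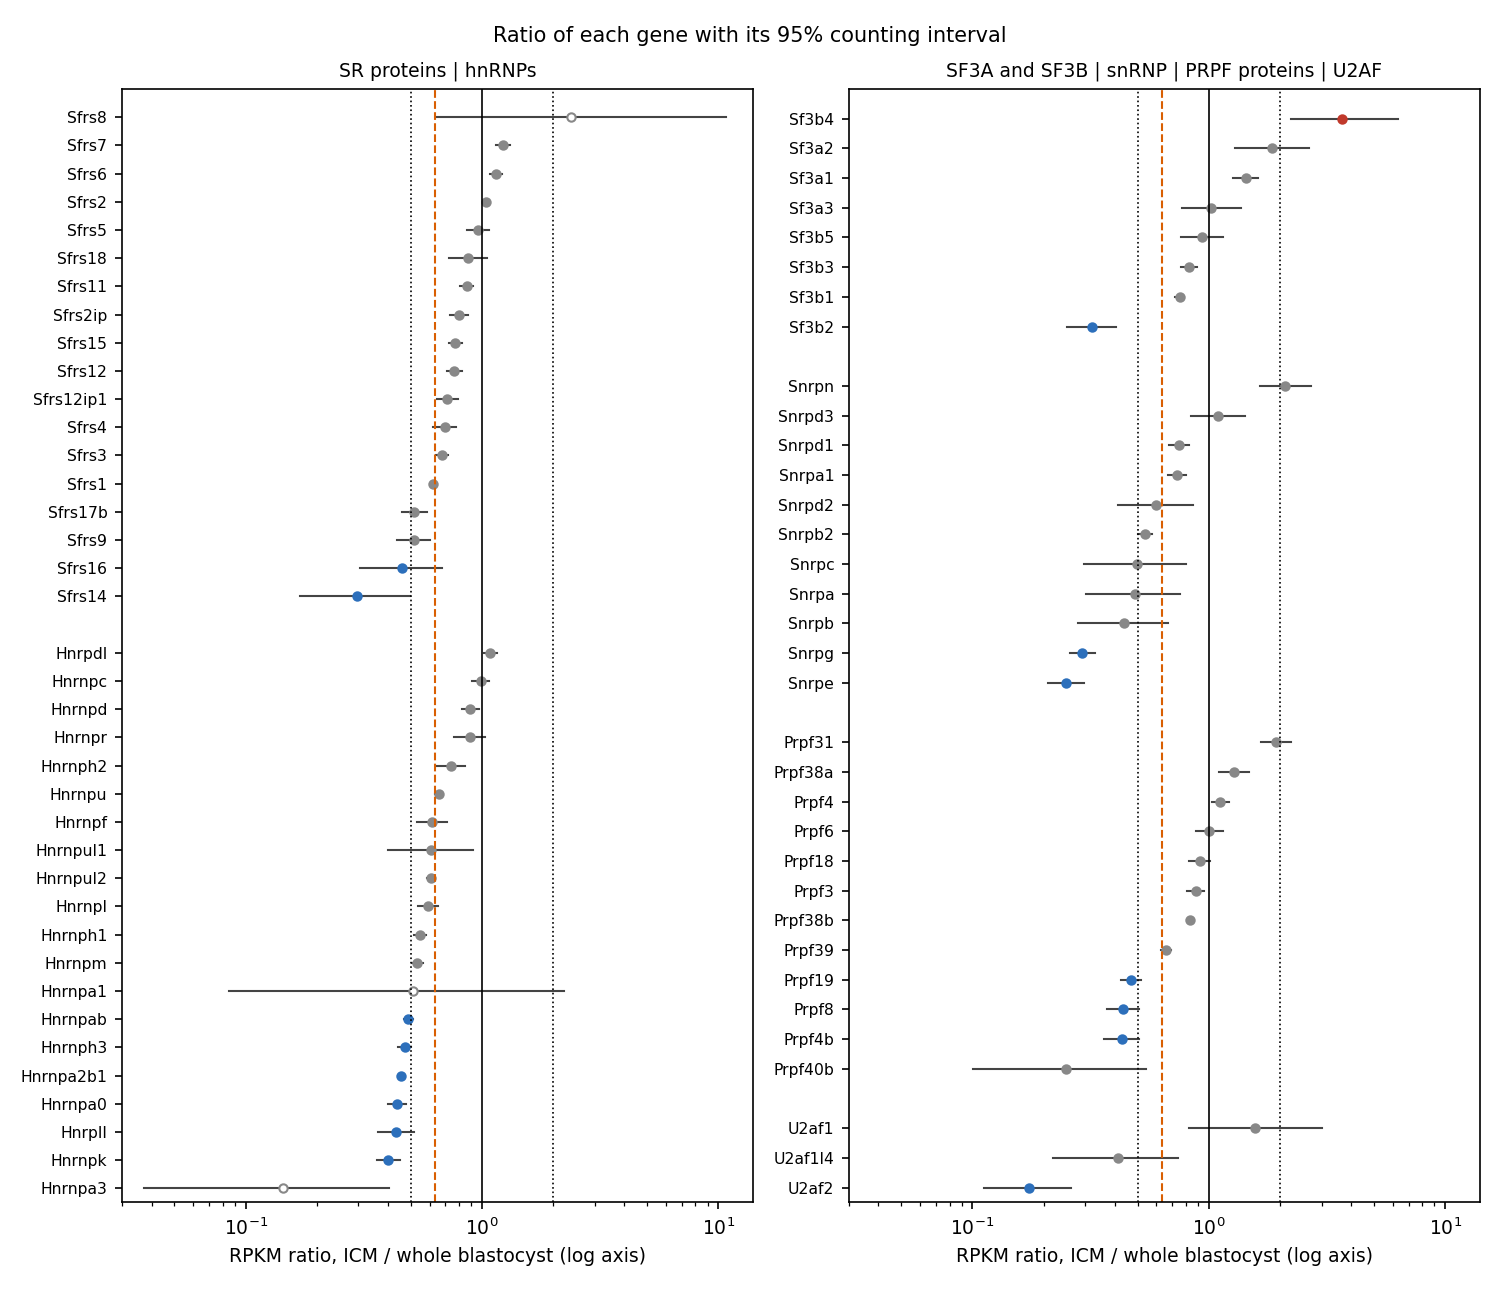
Ratio of ICM RPKM to whole-blastocyst RPKM (log axis) for 72 of the 73 genes, with its 95% counting interval as a line, ordered within families. Solid and dotted black lines mark 1 and 2-fold, the dashed orange line the centre of the table, blue and red points the genes at least 2-fold lower and higher on the log2(RPKM + 1) scale, and open points the 3 genes under an RPKM of 1. Sf3b4 and Snrpn stand highest among the retained genes and U2af2 lowest.

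The PRPF genes had a median difference of -0.26, which turned to 0.40 centred and 0.66 scaled to the listed reads. Among 13 genes, 3 (23.1%, beside 44.0% of all retained genes) were lower by 2-fold or more and none higher. After centring only Prpf31 passed 2-fold, upwards, beside 16.9% of all retained genes upwards and 20.5% downwards. The genes of the tri-snRNP split. Prpf31, which bridges U4/U6 and U5 and whose human gene is mutated in retinitis pigmentosa, had an RPKM of 7.57 in ICM and 3.96 in whole blastocyst (1.92, 1.65 to 2.22). Prpf4 had 7.55 in ICM and 6.75 in whole blastocyst (1.12, 1.03 to 1.22), Prpf6 45.6 in ICM and 45.4 in whole blastocyst (1.005, 0.879 to 1.15) and Prpf3 71.3 in ICM and 81.1 in whole blastocyst (0.879, 0.806 to 0.958). Prpf8, the largest spliceosomal protein and the scaffold of the catalytic centre, had 18.8 in ICM and 43.4 in whole blastocyst (0.435, 0.371 to 0.508). The last exon of Prpf31 overlaps exons of Gm15927 on the other strand.

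Outside the tri-snRNP, Prpf19, the ubiquitin ligase of the complex named after it, had 33.8 in ICM and 72.0 in whole blastocyst (0.469, 0.427 to 0.514), and the kinase gene Prpf4b 3.29 in ICM and 7.66 in whole blastocyst (0.429, 0.361 to 0.508). Prpf38a had 24.5 in ICM and 19.2 in whole blastocyst (1.28, 1.10 to 1.48), whereas Prpf38b, the most abundant PRPF gene, had 92.3 in ICM and 110.8 in whole blastocyst (0.833, 0.808 to 0.859). The U1-associated gene Prpf39 had 35.6 in ICM and 53.9 in whole blastocyst, and Prpf18, a factor of the second splicing step, 7.02 in ICM and 7.68 in whole blastocyst. Prpf40b had 8 reads in ICM and 38 in whole blastocyst (0.2499, 0.101 to 0.544) but, at a low level, a difference of only -0.88.

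The 3 U2AF genes were low in both libraries, with a median difference of -0.90 (-0.24 centred). U2af2, the large subunit that binds the polypyrimidine tract, had 27 reads in ICM and 184 in whole blastocyst, an RPKM of 0.941 in ICM and 5.4 in whole blastocyst (0.174, 0.112 to 0.262), the lowest ratio among the retained members. Its partner U2af1, which reads the intron's terminal AG, had 25 reads in ICM and 19 in whole blastocyst (1.56, 0.826 to 3.0), a ratio not separated from 1 at this depth. Per length U2af1 made up 72.0% (58.9 to 82.2) of the pair in ICM and 22.3% (14.5 to 31.6) in whole blastocyst. U2af1l4 had 16 reads in ICM and 46 in whole blastocyst. All the last-exon words of U2af1l4 are shared with another annotated gene, Gm49396, which overlaps it, 46.2% of those of U2af1 are shared with 2 pseudogenes, and 7.88% of those of U2af2 with 3.

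Near the limit of 2-fold, 7 members lay within 0.1 below a difference of -1, from Hnrnpa0 at -1.09 to Prpf4b at -1.01, and 4 within 0.1 above it, from Snrpb at -0.95 to U2af1l4 at -0.90. Of the 15 members called lower, 8 had a counting interval of the ratio wholly under 0.5.

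Other genes of splicing were taken from 7 lists of 149 genes, of which 137 were retained. Of these, 49 (35.8%, beside 44.0% of all retained genes) were lower by 2-fold or more in ICM and 7 (5.11%, beside 8.96% of all) higher, with a median difference of -0.67 (-0.012 centred).

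In the list of tissue and developmental splicing regulators, 14 of 35 were lower by 2-fold or more and none higher. The share lower was 40%, beside 44.0% of all retained genes. Esrp1 and Esrp2, the epithelial splicing regulators, were lowest. Esrp1 had 92 reads in ICM and 1486 in whole blastocyst, an RPKM of 1.69 in ICM and 23.0 in whole blastocyst (13.6-fold lower, 11.0 to 17.0). Esrp2 had 12 reads in ICM and 171 in whole blastocyst (12.01-fold lower, 6.70 to 23.7). Mbnl3, a muscleblind protein, had an RPKM of 1.95 in ICM and 14.5 in whole blastocyst (7.43-fold lower, 6.80 to 8.12) and Rbm25 2.44 in ICM and 16.0 in whole blastocyst (6.55-fold lower, 5.53 to 7.82). The trophectoderm markers, also of an epithelium, were lower in the same comparison, and their part in these values was not tested.

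Among SR-related proteins and SR kinases, 8 of 15 (53.3%) were at least 2-fold lower and 1 (6.67%) higher. The shares over all retained genes were 44.0% and 8.96%. Srpk1, a kinase that phosphorylates SR proteins in the cytoplasm, had an RPKM of 5.53 in ICM and 37.5 in whole blastocyst (6.78-fold lower, 5.67 to 8.17). Of the nuclear CLK kinase genes, Clk3 had 9.58 in ICM and 35 in whole blastocyst (3.65-fold lower, 3.05 to 4.39) and Clk4 10.5 in ICM and 36.4 in whole blastocyst (3.48-fold lower, 2.97 to 4.09). Clk1 had 232 reads in ICM and 686 in whole blastocyst (2.49-fold lower, 2.14 to 2.904). Clk2 was the 1 gene of the list that was higher, and Clk1 and Clk2 were named after their values were seen. Clk2 had 24 reads in ICM and 6 in whole blastocyst. Its RPKM was 3.25 in ICM and 0.684 in whole blastocyst (4.75-fold higher, 1.89 to 14.2), so it was retained through its ICM value only. Clk1, Clk3 and Clk4 were thus lower, and the other direction rests on the few reads of Clk2 alone. The splicing coactivator gene Srrm1 had 9.16 in ICM and 37.2 in whole blastocyst (4.06-fold lower, 3.61 to 4.58).

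In the Prp19 complex and catalytic step list, 8 of 21 (38.1%) were at least 2-fold lower and 4 (19.0%) higher. Over all retained genes these shares were 44.0% and 8.96%. Isy1 (31 reads in ICM and 364 in whole blastocyst) was 9.89-fold (6.85 to 14.8), Syf2 5.57-fold (4.71 to 6.61) and Snw1 3.99-fold (3.42 to 4.69) lower, while Ctnnbl1, with 263 reads in ICM and 59 in whole blastocyst, was 5.29-fold higher (3.98 to 7.14). In the list of snRNP and U2-associated proteins outside the symbols above, 6 of 29 (20.7%) were lower and 2 (6.90%) higher, beside the same shares over all. Usp39 was 10.9-fold lower (6.72 to 18.6) on 18 reads in ICM and 232 in whole blastocyst, and the helicase gene Dhx15 2.68-fold lower (2.39 to 3.01). Zrsr1 and Zrsr2 are paralogs of U2af1, and Zrsr1 is, like Snrpn, imprinted and paternally expressed in mouse. Zrsr1 had 406 reads in ICM and 99 in whole blastocyst (4.87-fold higher, 3.90 to 6.13). Zrsr2 had no read in ICM and 172 in whole blastocyst, at least 38.9-fold lower by the limit of the exact 95% interval. Sharing of last-exon words was not measured for Zrsr1 and Zrsr2.

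Of the exon junction complex, which marks spliced joins, 5 of 11 (45.5%, beside 44.0% of all retained genes) were lower and none higher. Magohb was 7.79-fold lower (4.64 to 13.99), and its paralog Magoh, named after its values were seen, had an RPKM of 70.4 in ICM and 99.5 in whole blastocyst. How far the last exons of these 2 paralogs share words was not measured, so the assignment of reads between them is uncertain. Thoc4 (Alyref) was 3.47-fold (2.24 to 5.55), Casc3 2.54-fold (2.33 to 2.77) and Pnn 2.17-fold (2.08 to 2.26) lower. Of the Lsm genes, relatives of the Sm genes, 3 of 9 (33.3%, beside 44.0% of all retained genes) were lower and none higher. Lsm10 was lower by 3.78-fold (3.03 to 4.76), Lsm4 by 3.50-fold (2.57 to 4.85) and Lsm8 by 2.81-fold (2.52 to 3.14). Lsm2 had an RPKM of 6.09 in ICM and 12.7 in whole blastocyst. Of snRNP assembly genes, 5 of 17 (29.4%, beside 44.0% of all retained genes) were lower and none higher. Coil, the scaffold of Cajal bodies, was 5.95-fold (4.37 to 8.26), the import adaptor Snupn 7.04-fold (4.03 to 13.3), the cap-binding subunit gene Ncbp2 3.70-fold (3.36 to 4.09) and Smn1, which loads the Sm ring, 3.22-fold (2.61 to 4.0) lower.

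**Figure D4:**
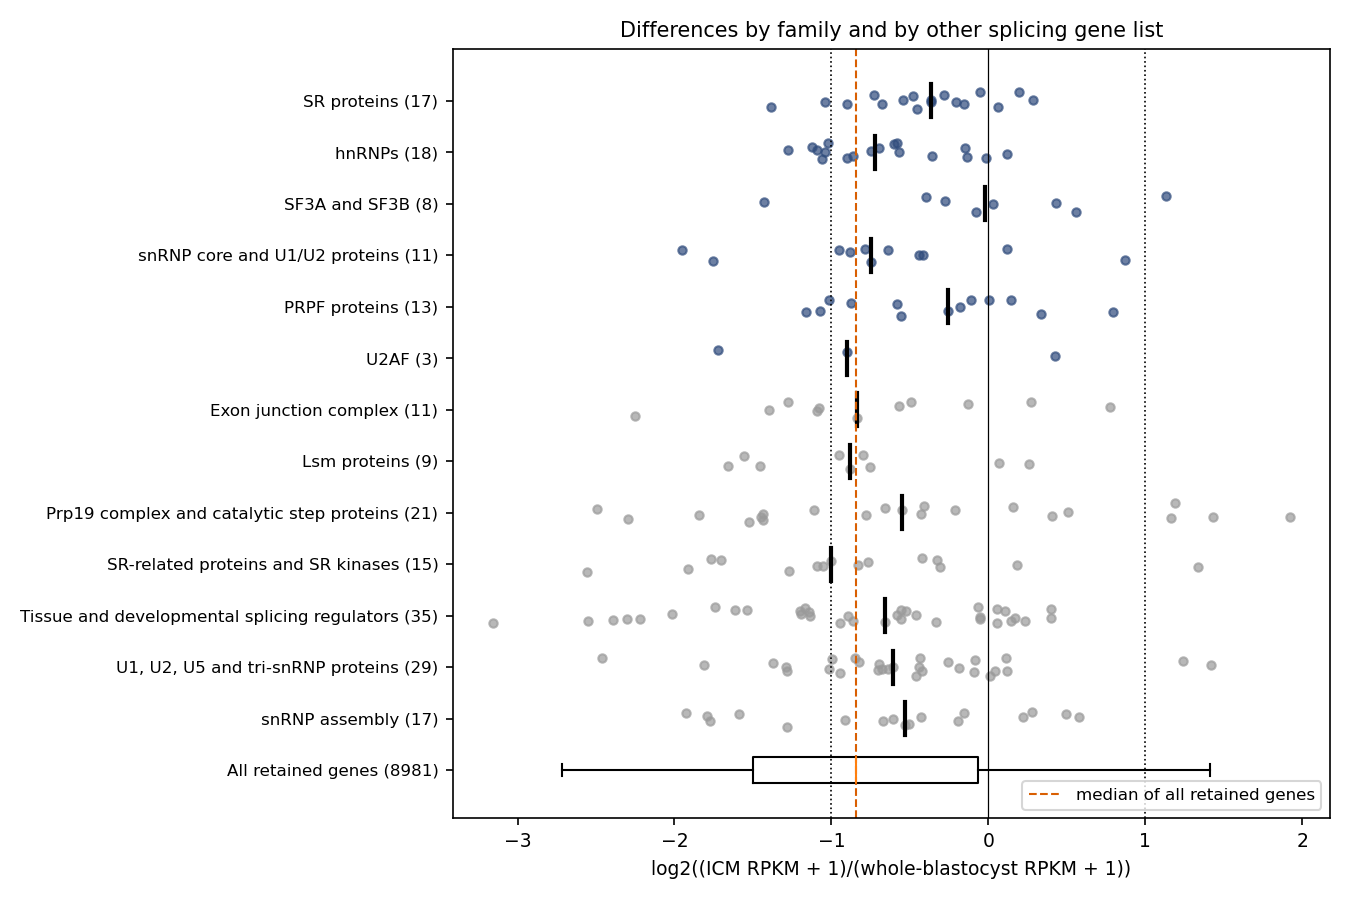
Differences between the libraries on the log2(RPKM + 1) scale (ICM over whole blastocyst) for the retained genes of each family (blue) and of each other splicing list (grey), 1 point per gene, with medians as black bars and the number of genes in brackets. The box gives the quartiles and 5th to 95th percentiles of all 8981 retained genes, the dashed line their median of -0.84 and the dotted lines 2-fold. The SF3A and SF3B genes have the highest median, and Esrp1 is the lowest point.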

How the data were processed

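Per the file headers, the authors deposited a read count and an RPKM per library for each gene symbol. Per the labels' protocols, PicoPure RNA was amplified with the NuGEN Ovation kit and made into SOLiD fragment libraries. The submitters' processing notes name mm9. Aligner, annotation, strand use and multiple mapping were not given in the sources used here. Reads of amplified cDNA without identifiers are not independent molecules.

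Members were the 73 rows whose symbol met the name rule. Members and lists were chosen with earlier results of these data known. Named genes were, in each family, the 4 highest and 4 lowest differences, the highest levels, genes beside 2-fold, paralog sets, and up to 4 genes of each further list with the largest difference and 50 or more reads. Differences used log2(RPKM + 1), and RPKM ratios carry exact conditional (Clopper-Pearson) 95% intervals from the reads (Python 3.11.15, SciPy 1.17.1). No p-value was computed. Symbols were matched to RefSeq GRCm38.p6, and last exons to GENCODE M21 by length. Sharing is the percentage of 35-base words of the member's nearest last exon found in transcripts of other genes. On 12795 genes with simulated Poisson counts, the intervals held the true ratio in 96.5% of genes. They are built to reach 95% for such counts, so this checks the computation only and not coverage for amplified reads. The planned protein sequences were not used here. Alternatives covered scaling, pseudocount and filters. The values of 1 member are not reported here on their own, though it is in the counts and medians.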

Additional observations from a re-analysis of the deposited data

How the results depend on the processing

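Scaling between the 2 libraries set the sign of most medians and the counts past 2-fold. The median difference of all members was -0.51 as deposited, 0.14 centred, 0.37 scaled to the listed reads and 0.41 as TPM. Members at least 2-fold lower numbered 15 as deposited and 3, 2 and 2 under these scalings (21.4%, 4.29%, 2.86% and 2.86%). The shares over all retained genes were 44.0%, 20.5%, 29.9% and 29.5%. Members at least 2-fold higher numbered 1 and then 6, 12 and 13 (1.43%, 8.57%, 17.1% and 18.6%), beside 8.96%, 16.9%, 21.3% and 22.0% of all retained genes. In the same order (centred, listed reads, TPM), the medians were 0.29, 0.53 and 0.57 for SR proteins, -0.065, 0.18 and 0.22 for hnRNPs, 0.63, 0.88 and 0.92 for SF3A and SF3B, -0.092, 0.023 and 0.062 for the snRNP proteins, and 0.40, 0.66 and 0.70 for PRPF proteins. For U2AF the centred and TPM medians were -0.24 and -0.30. A pseudocount of 0.1 gave 2 members at least 2-fold higher (2.86%, beside 11.5% of all retained genes). A mean RPKM of 5 or more gave 0 (beside 5.52% of all genes at that level), as Sf3b4 was then not retained.

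The joint SF3A and SF3B median stayed the highest of the 6 families under all 10 settings. As deposited it covers 0.43 for SF3A and -0.28 for SF3B. The SR and PRPF medians stayed above that of the hnRNPs, while the order of snRNP proteins and hnRNPs changed. Centring takes the same value off every gene, so it could not change the order. Scaling to the listed reads and TPM could change it only through the pseudocount. These settings are therefore no check of the order. Of 3 alternatives chosen after seeing the data, leaving out the 15 members that share over 10% of their last-exon words gave 0 members at least 2-fold higher and left U2af2 alone in its family, at -1.72. Keeping only members with a matching last exon gave a median of -0.68 over all members and -0.48 for SR proteins. Leaving out Sfrs2 gave a ratio of summed RPKM of 0.756 for the SR genes, against 0.904. Without a filter, 20.5% of members and 20.2% of all rows were at least 2-fold lower. Rows under an RPKM of 1 in both libraries cannot reach 2-fold with the pseudocount of 1. They only enlarge the denominator, so these shares cannot show whether the gap between the members and the table holds. Such rows also enter the median over all rows (-0.016). The members' median minus that value was -0.47, against 0.33 with the filter. No U2AF gene had a mean RPKM of 5 or more. No paired analysis was possible because there was 1 library per group. Genes with under 50 reads in both libraries together, 5 of the 73 members, are limited by depth.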
